A study of Homo sapiens with 22 samples.

Results

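RNA levels of 10 immediate early genes were followed in HT1080 cells, a human fibrosarcoma line. The genes were EGR1, FOS, FOSB, FOSL1, JUN, JUNB, IER2, ATF3, DUSP1 and MYC, which are 10 of the 60675 genes in the table of counts. They were chosen by their names, after EGR1 had been seen among the largest rises of the KDAC6H216A line. The difference between KDAC6H216A and WT cells had thus been used in the choice, and it is given here as a description with no test. Of these, 9 encode transcription factors or nuclear regulators of transcription, while DUSP1 encodes a phosphatase of the same early response.

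Immediate early genes are switched on within minutes of a stimulus, without the need for new protein. A growth signal passes through RAS, RAF, MEK and ERK kinases to ternary complex factors such as ELK1, which sit with serum response factor (SRF) on a DNA element called the CArG box. The products then turn on later genes: EGR1 is a zinc finger factor, the FOS and JUN proteins pair to form AP-1, ATF3 is a stress-induced relative of theirs, and MYC drives growth. DUSP1 removes phosphate from MAP kinases and so ends the signal. HT1080 cells carry an activated NRAS gene, so that this pathway is on without added stimulus.

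In all, 4 groups of 4 libraries and 2 groups of 3 libraries were compared, 22 libraries together. The WT cells were untreated. KDAC6H216A, KDAC6H611A and KDAC8H143A cells were untreated lines in which a histidine of the active site had been changed to alanine in the gene's own locus, in the first or the second catalytic domain of the deacetylase KDAC6 (gene HDAC6) or in KDAC8 (gene HDAC8). WT cells were also treated for 2 days with 1 µM Tubastatin A, an inhibitor directed at KDAC6, or with 5 µM PCI-34051, an inhibitor directed at KDAC8. The untreated cells received no stated vehicle. The KDAC6H216A cells were a pool of 3 independently derived lines, and each of the other mutant lines came from colonies grown from single cells. The replicates are of each line, so the tests do not measure the spread between independently derived lines. In KDAC6H611A and KDAC8H143A, traits of a colony and the mutation cannot be told apart. The KDAC8H143A line also carries an inserted base in an intron of HDAC8. All cells were trypsinized, stored in medium with glycerol and frozen before RNA was prepared from biological replicates.

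The libraries differed in more than their labels. Total counts lay between 5248953 and 17170473 in the untreated groups and between 24315766 and 29862665 in the treated ones. Mitochondrial rRNA took 20.8% to 23.9% of the counts in WT cells, 13.1% to 15.1% in KDAC6H216A replicates 2 to 4 and 21.0% to 38.0% in KDAC6H611A replicates 1 to 3. It took 0.195% in KDAC6H216A replicate 1, 0.173% in KDAC6H611A replicate 4, at most 0.0259% in KDAC8H143A and at most 0.00541% in treated cells. No label gives a batch. For KDAC8H143A and for both treatments, whatever lowered this share and the mutation or inhibitor cannot be told apart in a comparison with WT cells. Of 7 mesenchymal markers, VIM, CD44, FN1, SPARC and ANXA1 were at 148 CPM or more in every library, TGFBI was at 8.60 to 60.6 CPM and S100A4 at 0 to 3.26 CPM. Of 10 epithelial, leukocyte and endothelial markers, CLDN4 (2.89 to 9.45 CPM) and LYZ (0.656 to 5.53 CPM) were present in every library, CDH5 and VWF reached 1.92 and 1.70 CPM, and PECAM1, ESRP1, CDH1, PTPRC, EPCAM and CD3E stayed at or below 0.658 CPM. HDAC6 was at 5.85 to 7.45 CPM in KDAC6H216A and at 9.71 to 17 CPM in WT cells, and HDAC8 stayed between 10.3 and 15.4 CPM in all groups. Levels are given as CPM, the counts of a gene relative to the size of its library after TMM scaling in edgeR, and SD is taken over libraries.

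The stretches below are shown because they hold the CArG boxes found by exact match before EGR1, FOS and FOSB. They were read from the human genome GRCh38, the build the reads were aligned to, and lie within the 500 bases before the start of each gene's canonical transcript (GENCODE release 44). Capitals mark CArG boxes, 2 C, then 6 bases that are A or T, then 2 G.
EGR1, chr5:138465053-138465132, plus strand, 426 to 347 bases before the start: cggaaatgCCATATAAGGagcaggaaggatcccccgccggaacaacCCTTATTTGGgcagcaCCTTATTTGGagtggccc
EGR1, chr5:138465366-138465413, plus strand, 113 to 66 bases before the start: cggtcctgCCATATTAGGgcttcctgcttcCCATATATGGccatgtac
FOS, chr14:75278506-75278531, plus strand, 322 to 297 bases before the start: caggatgtCCATATTAGGacatctgc
FOSB, chr19:45467663-45467739, plus strand, 333 to 257 bases before the start: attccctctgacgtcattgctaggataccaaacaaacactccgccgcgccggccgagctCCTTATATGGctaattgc

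A CArG box was found in 2.349% of the windows of 19586 protein-coding genes and at least 2 were found in 0.071%. The EGR1 window held 5, the most in any window. The FOS and FOSB windows held 1 each, and none was found in the windows of the other 7 members. The same box, CCATATTAGG, was present 105 bases before the EGR1 start and 314 bases before the FOS start. A cyclic AMP response element, TGACGTCA, was found in 2.915% of windows, among them those of FOSB, where it lies at the left of the stretch shown, and DUSP1. The AP-1 letters TGANTCA were found in 9.706% of windows and in none of the members'. The EGR1 binding letters GCGNGGGCG were found in 15.48% of windows, with 1 match for EGR1 and 2 for FOSB. Both strands were searched and no match of one motif overlapped a match of another in these genes. A match of letters is a description and does not show that a protein was bound.

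EGR1 was nearly silent in WT cells. Its 4 WT libraries held 1.65, 1.62, 1.64 and 1.59 CPM, from 8 to 13 reads each. The KDAC6H216A libraries held 19.9, 9.86, 8.01 and 10.8 CPM, and those of KDAC6H611A 1.32, 1.51, 1.27 and 0.814 CPM. The level was high in all 4 KDAC6H216A libraries and was below every WT library in all 4 KDAC6H611A libraries, but the latter held 7 to 14 reads each and their difference from WT was not called (-0.39, 95% interval -1.17 to 0.39, adjusted p = 0.43). In KDAC8H143A EGR1 reached 50.5, 18.2, 21.8 and 55.9 CPM. Tubastatin A gave 12.9, 10.7 and 12.3 CPM, and PCI-34051 gave 18.4, 13.7 and 24.3 CPM. By mean level the order was KDAC8H143A, PCI-34051, KDAC6H216A, Tubastatin A, WT and KDAC6H611A. From KDAC8H143A to Tubastatin A each group overlapped its neighbour in this order, whereas Tubastatin A, WT and KDAC6H611A were separated from each other. In these bulk libraries, more RNA in each cell and more cells that expressed the gene cannot be told apart.

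**Figure D1:**
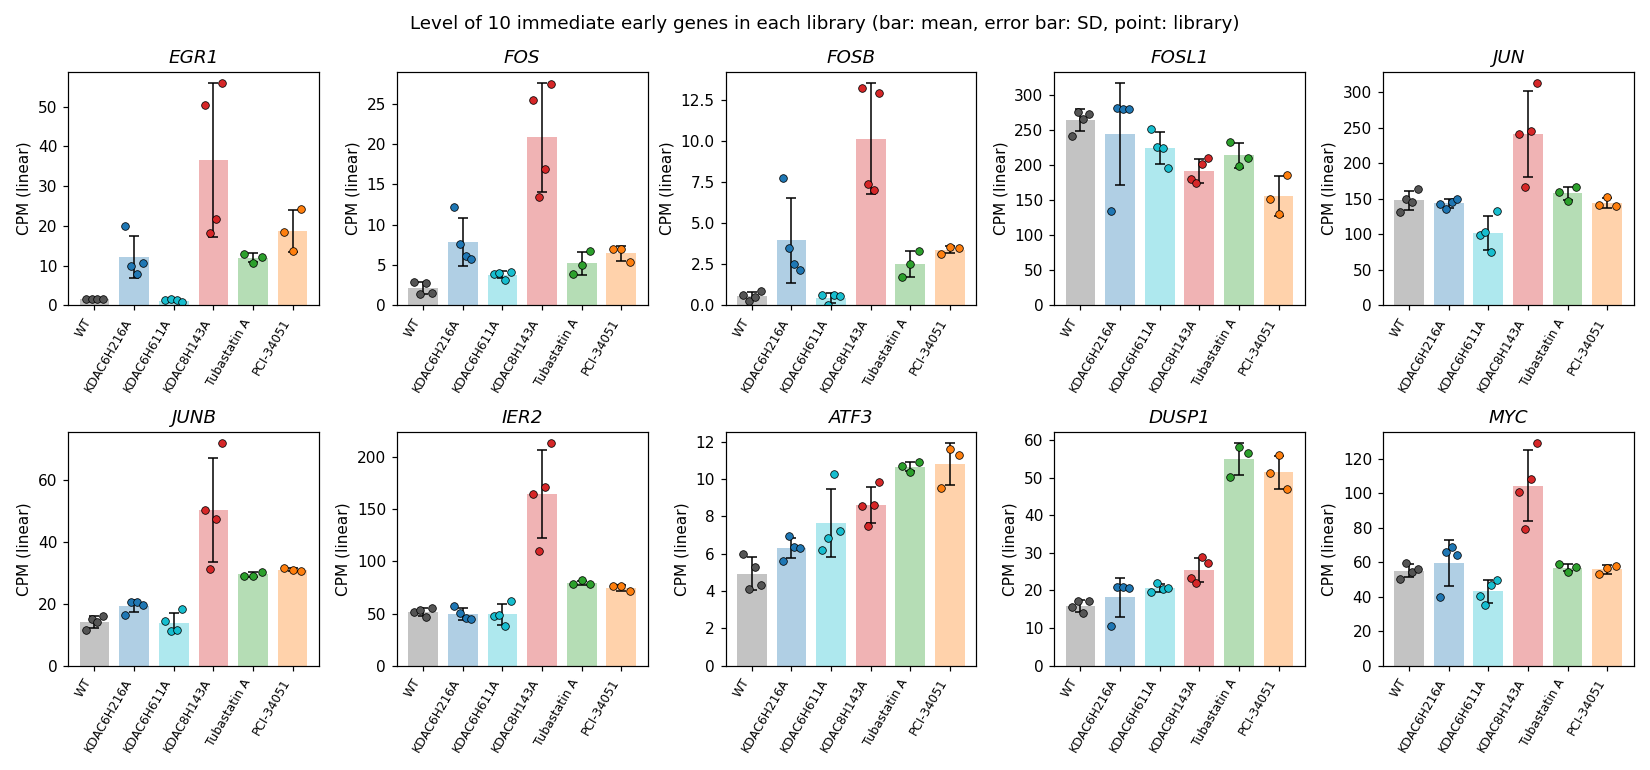
Level of each of the 10 genes in CPM (vertical axis, linear, from 0) in the 6 groups, with a bar for the mean, an error bar for the SD and a point for each library. EGR1, FOS and FOSB are near 0 in WT cells and highest in KDAC8H143A, DUSP1 is highest with the inhibitors, and FOSL1 has its highest mean in WT cells. KDAC6H216A replicate 1, at 135 CPM of FOSL1 and 10.5 CPM of DUSP1, lies apart from the other 3 libraries of its group. These hold 280 to 281 CPM of FOSL1, above every WT library.

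FOS, the founding member of the FOS family, was low in WT cells and highest in KDAC8H143A. The WT libraries held 2.89, 1.37, 2.77 and 1.59 CPM. KDAC6H216A held 12.2, 7.60, 6.08 and 5.71 CPM, KDAC6H611A 3.95, 4.02, 3.17 and 4.18 CPM, and KDAC8H143A 25.5, 13.4, 16.9 and 27.5 CPM. All 5 of the other groups lay above the highest WT library, and KDAC8H143A lay above all of them. Tubastatin A gave 3.92, 4.97 and 6.76 CPM and PCI-34051 gave 7.03, 6.99 and 5.42 CPM, with overlapping ranges. Between KDAC8H143A and WT, the middle places went to KDAC6H216A, PCI-34051, Tubastatin A and KDAC6H611A, and each of these overlapped the next.

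FOSB, a partner of JUN proteins like FOS, was at the limit of detection in 2 groups. The WT libraries held 3, 2, 4 and 6 reads, or 0.249 to 0.867 CPM, and the KDAC6H611A libraries held 5, 0, 7 and 5 reads, at most 0.658 CPM. A floor of 3 counts amounts to 0.333 to 0.572 CPM in WT libraries, so that levels of this size cannot be ordered. KDAC6H216A held 7.75, 3.49, 2.51 and 2.13 CPM, KDAC8H143A 13.2, 7.39, 7.03 and 12.9 CPM, Tubastatin A 1.75, 2.50 and 3.31 CPM, and PCI-34051 3.14, 3.53 and 3.52 CPM. Every library of these 4 groups lay above every library of the first 2. In order of mean level, KDAC8H143A, KDAC6H216A, PCI-34051 and Tubastatin A each overlapped the next.

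In KDAC6H216A the description of EGR1, FOS and FOSB is as follows. On the log2 scale they were 2.83 ± 0.37 (SE), 1.82 ± 0.38 and 2.77 ± 0.59 above WT cells, or 7.11-fold, 3.54-fold and 6.81-fold. Replicate 1, the library with 0.195% mitochondrial rRNA, was the highest of its group for all 3 genes, at 2.08, 1.89 and 2.86 times the mean of the others. Its 3 sister libraries alone held 9.57 ± 1.44 CPM of EGR1 (SD, n = 3), 5.88 times the WT mean, 6.46 ± 1.00 CPM of FOS and 2.71 ± 0.703 CPM of FOSB, and each of them was still above every WT library. JUNB was 0.34 ± 0.11 above WT and did not overlap it, whereas FOSL1, JUN, IER2, ATF3, DUSP1 and MYC lay between -0.22 and 0.28 and overlapped. For 4 of the 10 members, EGR1, FOS, FOSB and JUNB, all libraries were above all WT libraries, which was the case for 5.36% of 14500 genes tested. Since this contrast was used in the choice of members, nothing follows from that count.

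**Figure D2:**
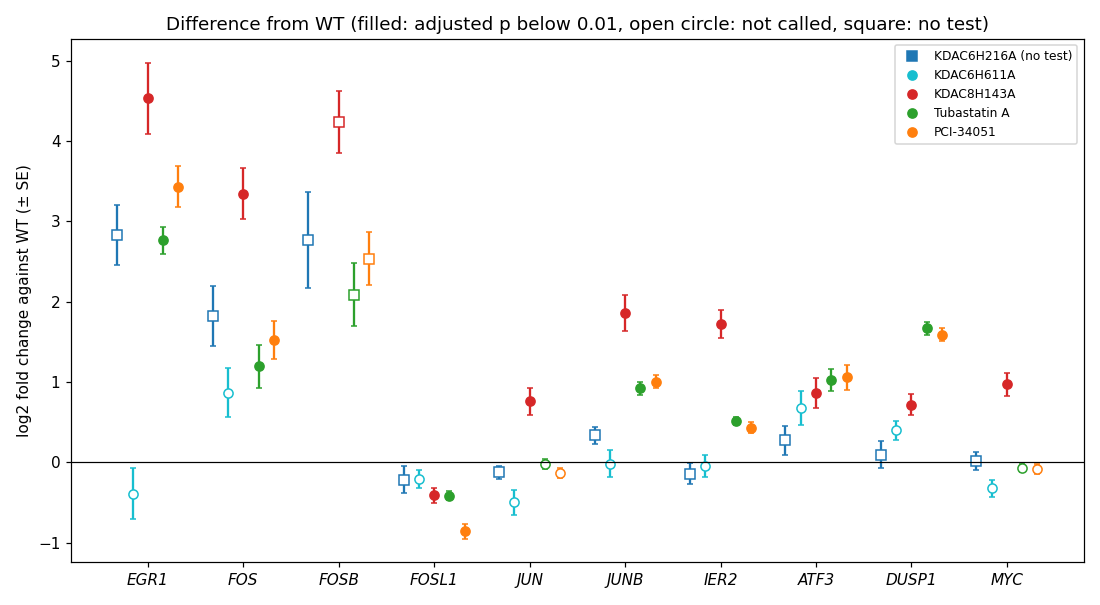
Log2 fold change against WT cells (vertical axis, with SE) of the 10 genes in the 5 other groups, from fits of 2 groups each. Filled points passed an adjusted p below 0.01, open circles did not, and squares have no test (KDAC6H216A, and FOSB, which has no point in KDAC6H611A). EGR1, FOS and FOSB are the 3 highest genes in KDAC8H143A, at 4.53, 3.35 and 4.23, and FOSL1 lies below 0 in all 5 groups.

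In KDAC6H611A, where the second domain is inactivated, no member passed the test. A gene was called changed where the quasi-likelihood test of edgeR gave a p below 0.01 after adjustment by the Benjamini-Hochberg method over every gene tested. The count was 0 of the 9 members tested, beside 12.3% of 14725 genes (6.08% higher and 6.24% lower). FOSB was filtered out because its counts were too low. At a threshold of 0.05 the test called 4 of them: DUSP1 (0.40 ± 0.12, adjusted p = 0.030), JUN (-0.50 ± 0.15, adjusted p = 0.033), MYC (-0.32 ± 0.10, adjusted p = 0.036) and ATF3 (0.68 ± 0.21, adjusted p = 0.038). The unadjusted p was below 0.05 for 5 of them, and DESeq2 called 0 at 0.01. FOS was 0.87 ± 0.30 above WT with an adjusted p of 0.056, and EGR1 was 0.39 ± 0.32 below it with an adjusted p of 0.43. JUN and ATF3 depended on the processing. ATF3 was called higher with all 6 groups in one fit (0.66, adjusted p = 0.00819). JUN was called lower without the filter, with the correction for GC content and gene length, and without KDAC6H611A replicate 2 (-0.54, adjusted p = 0.00821). Replicate 4, the library with 0.173% mitochondrial rRNA, held the lowest EGR1 level of the group and the highest of FOS, JUN, JUNB, IER2 and MYC. Its JUN level was 133 CPM beside 74.8 to 103 CPM in the others. The part of the low mitochondrial rRNA share in these values was not tested.

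In KDAC8H143A 8 of the 9 members other than FOSB were called higher and 1 lower, beside 58.5% of 16101 genes (31.6% higher and 26.9% lower). The WT libraries used here are those against which EGR1 had been chosen. EGR1 was 23.2-fold higher than in WT cells (4.53 ± 0.44, adjusted p = 6.02e-06) and FOS 10.2-fold (3.35 ± 0.32, adjusted p = 4.73e-06). Both were called in every alternative in which they could be fitted, with EGR1 between 3.89 and 4.78. FOSB was 18.8-fold higher as a description, since it passed the filter through the KDAC8H143A libraries alone. The spread of EGR1 was wide: replicates 2 and 3 held 18.2 and 21.8 CPM of EGR1, well under the 50.5 and 55.9 CPM of replicates 1 and 4. Replicate 4 was the highest of its group for 8 of the 10 members and replicate 2 the lowest for 9 of them.

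The JUN genes encode the partners of the FOS proteins. JUN, the strongest transcriptional activator among them, held 131, 150, 146 and 164 CPM in WT cells and 241, 166, 245 and 313 CPM in KDAC8H143A, which did not overlap. It was 0.76 ± 0.17 higher (adjusted p = 1.47e-03). JUNB, a weaker activator, held 11.6, 15.2, 14.1 and 16.2 CPM in WT cells and 50.5, 31.4, 47.6 and 72.0 CPM in KDAC8H143A, 3.63-fold higher (1.86 ± 0.23, adjusted p = 2.47e-05). IER2, a small nuclear regulator, rose from 46.4 to 55.2 CPM in WT cells to 110 to 213 CPM, 3.30-fold (1.72 ± 0.18, adjusted p = 8.01e-06). For these 3 genes and for DUSP1, EGR1, FOS and FOSB the size of the change depended on a correction for GC content and gene length. With it, JUNB fell to 0.68 ± 0.11 and IER2 to 0.72 ± 0.09, both still called, while JUN (0.19 ± 0.12, adjusted p = 0.18) and DUSP1 (0.26 ± 0.11, adjusted p = 0.055) were no longer called. The JUNB and IER2 transcripts are 64.9% and 63.0% G and C, beside a median of 49.1% over protein-coding genes. JUN and DUSP1 are at 56.1% and 55.2%. EGR1, FOS and FOSB, at 55.3%, 52.8% and 57.6%, fell from 4.535, 3.346 and 4.234 to 4.02, 3.05 and 3.56.

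**Figure D3:**
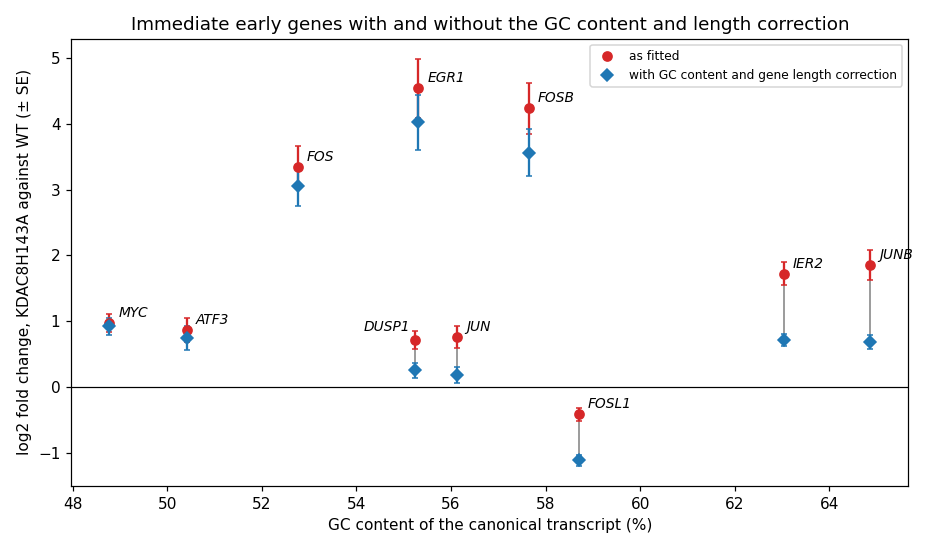
Log2 fold change of KDAC8H143A against WT (vertical axis, with SE) over the GC content of each gene's canonical transcript in percent (horizontal axis), as fitted (circles) and after the correction for GC content and gene length (diamonds). JUNB and IER2, at the right, move from 1.86 and 1.72 to 0.68 and 0.72, while MYC and ATF3, at the left, move from 0.97 and 0.87 to 0.93 and 0.74.

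MYC was called in this line and in none of the other tested comparisons with WT cells. Its difference between KDAC8H143A and KDAC6H611A was called too (1.31 ± 0.17, adjusted p = 5.69e-05), and KDAC8H143A was not tested against the inhibitors. Its WT libraries held 50.4, 59.3, 54.4 and 56.1 CPM and its KDAC8H143A libraries 101, 79.3, 108 and 129 CPM, 1.96-fold more (0.97 ± 0.14, adjusted p = 7.89e-05). ATF3 was 1.82-fold higher (0.87 ± 0.18, adjusted p = 1.27e-03), with 7.49 to 9.86 CPM above the 4.11 to 5.99 CPM of WT cells. DUSP1 was 1.65-fold higher as fitted (0.72 ± 0.13, adjusted p = 4.37e-04). FOSL1, which encodes FRA1, went the other way. It held 241, 275, 265 and 273 CPM in WT cells and 180, 175, 201 and 210 CPM in KDAC8H143A, and was called lower (-0.41 ± 0.10, adjusted p = 2.52e-03). That call was lost with scaling by the total count only (-0.13), without the filter, with all 6 groups in one fit, and without WT replicate 2 (adjusted p = 0.0104), while the correction for GC content and length took it to -1.11.

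The comparison of KDAC8H143A with KDAC6H611A used neither the WT nor the KDAC6H216A libraries, and so none of the values by which EGR1 was chosen. FOSB passed the filter here through the KDAC8H143A libraries alone, and its log2 difference of 4.33 is a description. Of the other 9 members, 6 were called higher and 0 lower, beside 45.2% of 16624 genes (24.3% higher and 20.9% lower). EGR1 was 4.94 ± 0.44 higher (adjusted p = 4.46e-06) and FOS 2.48 ± 0.26 (adjusted p = 1.45e-05). JUNB was 1.89 ± 0.24 higher, IER2 1.78 ± 0.21, MYC 1.31 ± 0.17 and JUN 1.27 ± 0.22, with adjusted p from 3.24e-05 to 3.65e-04. These 6 stayed called with the correction for GC content and length, at 0.87 for JUNB and 0.94 for IER2. DUSP1 (0.33 ± 0.14, adjusted p = 0.063), ATF3 (0.20 ± 0.21, adjusted p = 0.43) and FOSL1 (-0.19 ± 0.14, adjusted p = 0.25) were not called, but FOSL1 was called lower with that correction (-0.74, adjusted p = 6.90e-04). The one KDAC6H611A library with little mitochondrial rRNA held 0.814 CPM of EGR1, 4.18 CPM of FOS and 0.581 CPM of FOSB, each below every KDAC8H143A library. Within its own group it was the lowest for EGR1 and the highest for FOS, JUN, JUNB, IER2 and MYC. The part of the mitochondrial rRNA share in this comparison was not tested.

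**Figure D4:**
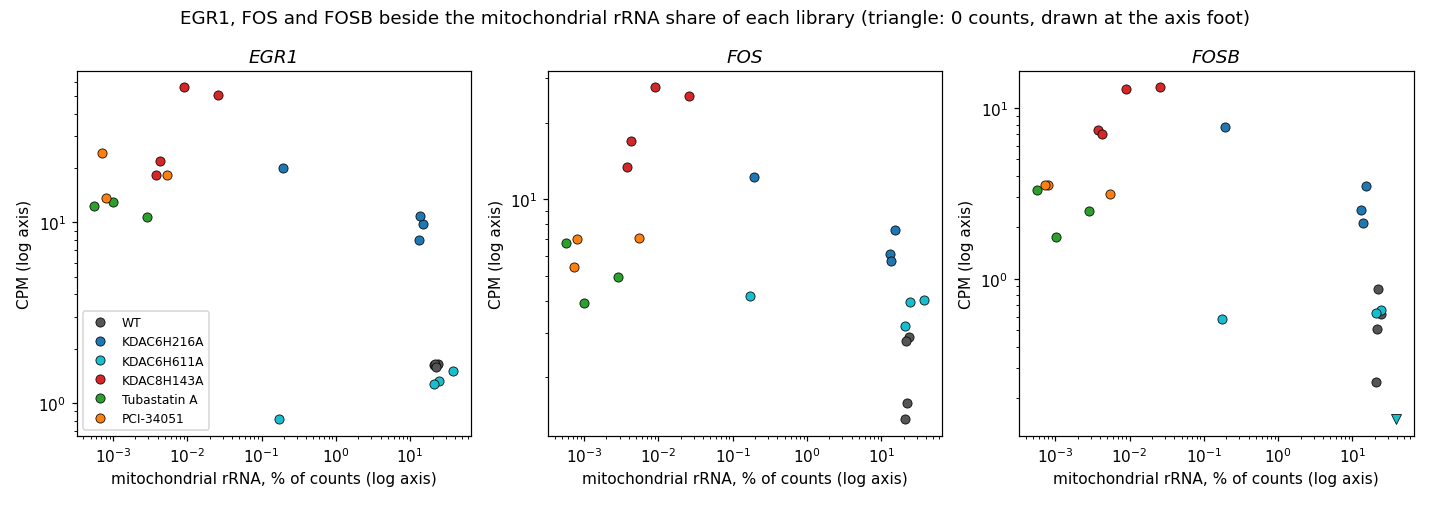
EGR1, FOS and FOSB in CPM (vertical axes, log scale) over the percent of each library's counts in mitochondrial rRNA (horizontal axes, log scale), 1 point for each of 22 libraries; a triangle marks a library with 0 counts. Of the other libraries with little mitochondrial rRNA, KDAC6H611A replicate 4, at 0.173%, is the lowest of its group for EGR1 and the highest for FOS, and KDAC6H216A replicate 1, at 0.195%, is the highest of its group for all 3 genes. The KDAC6H216A libraries at 13.1% to 15.1% lie above WT.

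The inhibitors were compared with the same WT libraries, so that their results are given side by side and not as independent of each other. These WT libraries, also used for KDAC6H611A, are those against which EGR1 had been chosen. FOSB passed the filter through the treated libraries alone, and its log2 differences of 2.09 and 2.53 from WT are descriptions. With Tubastatin A, 7 of the other 9 members were called, 6 higher and 1 lower, beside 57.9% of 15246 genes (29.3% higher and 28.6% lower). With PCI-34051 7 of these 9 were called, again 6 higher and 1 lower, beside 51.1% of 15346 genes (25.5% higher and 25.6% lower). EGR1 was 6.79-fold higher with Tubastatin A (2.76 ± 0.17, adjusted p = 5.48e-11) and 10.8-fold higher with PCI-34051 (3.43 ± 0.25, adjusted p = 2.99e-09). FOS was 1.20 ± 0.27 and 1.52 ± 0.23 higher, in that order, and when all libraries were thinned to the smallest the call of FOS with Tubastatin A was lost (0.99, adjusted p = 0.0135).

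DUSP1 stood out in the treated cells. It held 15.5, 17.3, 13.9 and 17.1 CPM in WT cells, 50.1, 58.0 and 56.6 CPM with Tubastatin A and 51.2, 55.9 and 47.0 CPM with PCI-34051, with wide gaps between WT and treated libraries. It was 3.19-fold (1.67 ± 0.08, adjusted p = 1.22e-12) and 3.01-fold (1.59 ± 0.08, adjusted p = 4.39e-11) higher than in WT cells. All 6 treated libraries also lay above the 22 to 28.8 CPM of KDAC8H143A, the reverse of the order by mean level seen for EGR1, FOS, FOSB, JUN, JUNB, IER2 and MYC. ATF3 held 10.7, 10.4 and 10.9 CPM with Tubastatin A and 9.54, 11.6 and 11.3 CPM with PCI-34051, 2.04-fold and 2.08-fold more than in WT cells (adjusted p = 2.42e-06 and 1.33e-05). JUNB was 1.89-fold and 2.01-fold higher (0.92 ± 0.08 and 1.01 ± 0.09), with 29.1 to 31.6 CPM in the 6 treated libraries.

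IER2 changed less, by 0.51 ± 0.05 (adjusted p = 9.01e-08) with Tubastatin A and 0.43 ± 0.06 (adjusted p = 1.27e-05) with PCI-34051, and the latter call was lost with all 6 groups in one fit (adjusted p = 0.014). JUN and MYC were not called with either inhibitor. JUN was -0.02 ± 0.06 and -0.13 ± 0.06 from WT, and MYC -0.07 ± 0.05 and -0.08 ± 0.06. With the total count as the only scaling, which moved the median of all genes to 0.35 and 0.38, both genes were called higher by 0.25 to 0.33, which is less than the shift of the median gene. FOSL1 was called lower with both, by 0.42 ± 0.06 with Tubastatin A (log2 -0.42, adjusted p = 2.32e-06) and by 0.86 ± 0.09 with PCI-34051 (log2 -0.86, adjusted p = 4.03e-07). The first of these calls was lost with the total count only (-0.06) and with all 6 groups in one fit (-0.30).

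Between the inhibitors, given at different doses, 2 of the 10 members were called, beside 5.65% of 18409 genes (3.45% higher and 2.2% lower). EGR1 was lower with Tubastatin A (-0.67, 95% interval -1.10 to -0.24, adjusted p = 9.80e-03) and FOSL1 was higher (0.44, 95% interval 0.17 to 0.71, adjusted p = 6.97e-03). Neither call was kept by DESeq2 (adjusted p = 0.053 and 0.063) or with upper quartile scaling, and EGR1 moved to -0.43 (adjusted p = 0.0431) without PCI-34051 replicate 3. For the other 8 members the intervals of the difference included 0, from -0.05 to 0.20 for IER2, the narrowest, to -1.03 to 0.14 for FOSB, the widest. At these sizes a difference of up to 2-fold in FOSB, but not in FOS, JUN, JUNB, IER2, ATF3, DUSP1 or MYC, lies within the interval.

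Levels per length put these changes in proportion. In WT cells FOSL1 stood at 155 ± 9.33 CPM per kilobase of transcript (SD, n = 4), FOS at 1.03 ± 0.374 and FOSB at 0.148 ± 0.068. FOSL2, a further FOS relative, stood at 28.8 ± 1.20. FOSL1 thus made up 83.8% ± 0.493 of the summed FOS family in WT cells and FOS 0.563% ± 0.230. In KDAC8H143A the share of FOS was 5.78% ± 1.67 and that of FOSL1 66.1% ± 0.977, so that FOSL1 was still the most abundant FOS transcript by length. FOSL1 had 78.0% ± 6.61 in KDAC6H216A, 74.9% ± 2.87 in KDAC6H611A, 72.5% ± 2.03 with Tubastatin A (n = 3) and 64.7% ± 3.86 with PCI-34051 (n = 3). Its lowest share in WT cells, 83.1%, was above the highest in every other group, of which the nearest was 81.4%. The FOSL2 share was 15.3% to 16% in WT libraries and 16.6% or more in all others. These shares are descriptions and were not tested.

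Among the JUN genes the balance also moved. JUN held 74.6% ± 1.35 of the summed JUN family per length in WT cells, JUNB 12.8% ± 0.535 and JUND, which is made at a steadier rate in most cells, 12.6% ± 0.904. JUN held 65.0% ± 3.32 in KDAC6H611A and 62.0% ± 1.83 in KDAC8H143A. It held 57.6% ± 0.621 in Tubastatin A-treated cells and 54.3% ± 0.821 in those given PCI-34051. All libraries of these groups were below every WT library, while KDAC6H216A, at 70.7% ± 2.09, overlapped WT. JUNB took 22.7% ± 1.37 in KDAC8H143A. JUND took 23.1% ± 0.535 and 24.9% ± 1.09 with the inhibitors and 19.3% ± 2.26 in KDAC6H611A. The family's sum was 60.8 ± 6.33 CPM per kilobase in WT cells and 120 ± 32.7 in KDAC8H143A. These shares and sums were not corrected for GC content and length, a correction that takes the log2 change in KDAC8H143A from 0.76 to 0.19 for JUN, which was then not called, and from 1.86 to 0.68 for JUNB.

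**Figure D5:**
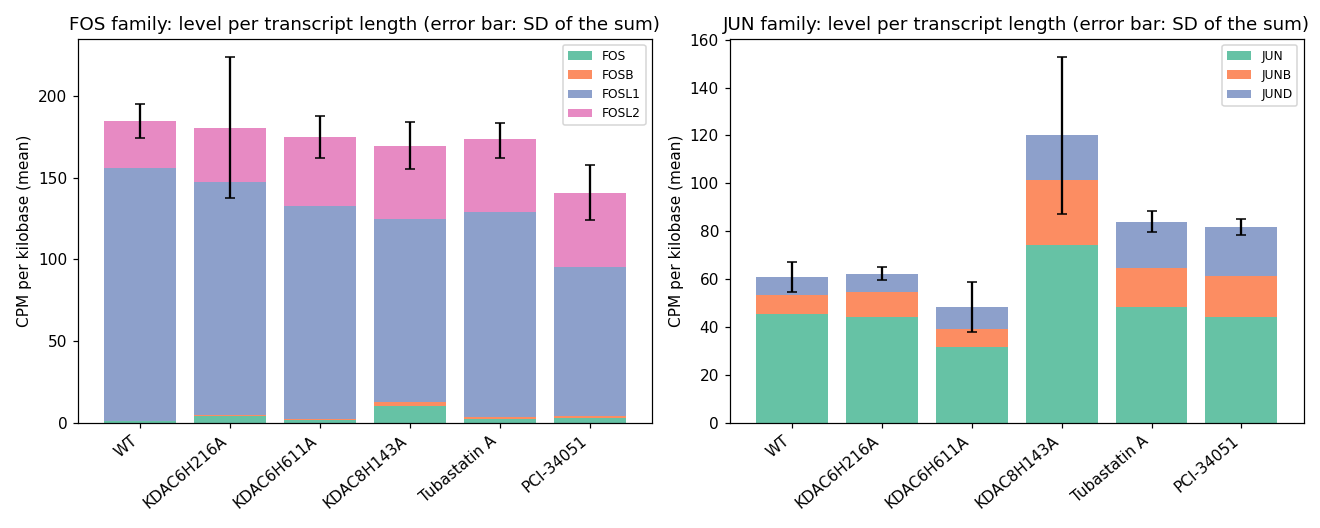
Stacked mean level in CPM per kilobase of canonical transcript (vertical axes, from 0) of the 4 FOS genes (left) and the 3 JUN genes (right) in the 6 groups, with the SD of the sum. FOSL1 fills most of each FOS bar, 83.8% in WT and 64.7% with PCI-34051, and FOS and FOSB are thin bands at the foot; the JUN family sum is highest in KDAC8H143A.

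Other inducible genes were followed through fixed lists, to be read beside all genes tested, of which 31.6% were higher and 26.9% lower in KDAC8H143A, 29.3% and 28.6% with Tubastatin A, 25.5% and 25.6% with PCI-34051, and 6.08% and 6.24% in KDAC6H611A. Of 20 further inducible transcription factors, 16 were tested in KDAC8H143A, where 9 (56.2%) were called higher and 1 (6.25%) lower. NR4A1, an orphan nuclear receptor of the early response, was higher (10.5 ± 1.92 CPM against 2.70 ± 0.720 in WT, 2.01 ± 0.23, adjusted p = 1.67e-05), as was KLF2 (48.3 ± 13.4 against 15.7 ± 1.01 CPM), whereas ID3, an inhibitor of helix-loop-helix factors, was lower (14.5 ± 3.15 against 25.2 ± 2.13 CPM). The list's median log2 fold change was 0.66, beside 0.08 over all genes. With Tubastatin A 13 of 17 (76.5%) were higher and 2 lower, with a median of 1.31, and with PCI-34051 13 of 17 were higher and 1 lower, with a median of 1.21. The leading genes there were ID1 (165 ± 6.79 and 155 ± 15 CPM against 24.8 ± 4.05 in WT, n = 3, 3 and 4) and ID2. ID2, at 7.61 ± 0.42 and 9.15 ± 1.71 CPM, is counted here although it was low in WT cells (1.21 ± 0.499 CPM). In KDAC6H611A 2 of 16 were higher and 3 lower: KLF4 was higher (10.3 ± 1.19 against 3.91 ± 0.391 CPM, 1.43 ± 0.18, adjusted p = 1.08e-04), as was FOSL2, and MAFF (11.1 ± 0.863 against 23.9 ± 1.91 CPM) and KLF2 (8.77 ± 1.31 CPM) were lower.

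Of 20 inducible signalling and mRNA decay genes, all tested, 8 (40%) were called higher and 5 (25%) lower in KDAC8H143A, where 58.5% of all genes were called in either direction, 12 (60%) higher and 4 (20%) lower with each inhibitor, and 3 higher and 4 lower in KDAC6H611A. ZFP36, whose protein speeds the decay of many early transcripts, was higher in KDAC8H143A (24.6 ± 7.78 against 6.97 ± 1.73 CPM, 1.86 ± 0.25, adjusted p = 5.38e-05), and SGK1, a kinase gene, was lower (28.9 ± 5.47 against 105 ± 4.46 CPM). PTGS2, which encodes the inducible cyclooxygenase, was the leading gene of the list with both inhibitors. It stood at 2.08 ± 1.16 CPM in WT cells, 22.1 ± 1.80 with Tubastatin A (3.26 ± 0.19, adjusted p = 1.42e-11) and 43.2 ± 3.20 with PCI-34051 (4.24 ± 0.17, adjusted p = 1.54e-12). PTGS2 was lower with Tubastatin A than with PCI-34051 (-0.98 ± 0.07, adjusted p = 3.71e-07). EGR1 had the same direction, but its call was lost with DESeq2 and with upper quartile scaling. CCN1, an SRF target listed under its older symbol CYR61, was at 313 ± 17.1 CPM in WT cells and 785 ± 9.96 CPM with Tubastatin A (1.21 ± 0.05, adjusted p = 1.63e-13). With PCI-34051 it was at 594 ± 12.3 CPM, also above WT cells. TRIB1, a pseudokinase gene, was lower in KDAC6H611A (26.2 ± 2.23 CPM) and with both inhibitors (24.7 ± 0.822 and 25.7 ± 0.246 CPM) than in WT cells (43.6 ± 3.88 CPM).

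The feedback side of the pathway did not move as one. Of 15 MAP kinase phosphatases and feedback inhibitors other than DUSP1, 5 of 13 tested (38.5%, beside 31.6% of all genes) were higher and 1 lower in KDAC8H143A, 3 of 12 higher (25%, beside 29.3%) and 7 lower (58.3%, beside 28.6%) with Tubastatin A, 3 of 12 higher and 5 lower with PCI-34051, and 1 of 12 higher and 0 lower in KDAC6H611A, where DUSP4 was the one (225 ± 24.6 against 159 ± 8.87 CPM). While DUSP1 rose with the inhibitors, DUSP5, an ERK phosphatase, was lower with both (60.5 ± 2.73 and 62.6 ± 3.63 CPM against 104 ± 4.47 in WT, adjusted p = 3.36e-12 and 3.27e-10), as was SPRY4 (36.8 ± 1.58 and 34.3 ± 0.624 against 51.2 ± 4.79 CPM). DUSP2 held 2.48 ± 0.400 CPM in KDAC8H143A and 0.494 ± 0.0981 CPM in WT cells, where a floor of 3 counts is 0.333 to 0.572 CPM. It passed the filter through the KDAC8H143A libraries alone, so its log2 difference of 2.32 ± 0.32 is a description. It is among the 5 counted as higher, and among those counted against KDAC6H611A, where it stood at 0 CPM. In KDAC8H143A DUSP8 was higher too (11.5 ± 1.69 against 3.26 ± 0.697 CPM, 1.84 ± 0.20). ERRFI1, an inhibitor of the EGF receptor, was lower there (113 ± 27.2 against 228 ± 11.5 CPM) and higher with both inhibitors (335 ± 7.26 and 387 ± 14.2 CPM).

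Of 22 genes for upstream kinases and serum response factors, all tested, 5 were higher (22.7%, beside 31.6% of all genes) and 7 lower (31.8%, beside 26.9%) in KDAC8H143A, 14 higher (63.6%, beside 29.3%) and 3 lower with Tubastatin A, 13 higher (59.1%, beside 25.5%) and 2 lower with PCI-34051, and 0 higher and 3 lower in KDAC6H611A. RPS6KA2, a kinase gene of the RSK family, was lower in both KDAC6H611A (20.2 ± 0.643 CPM, -1.46 ± 0.09, adjusted p = 5.96e-07) and KDAC8H143A (16.6 ± 2.61 CPM, -1.72 ± 0.12, adjusted p = 8.74e-07) than in WT cells (56.7 ± 3.64 CPM). NRAS was lower in KDAC8H143A (24.3 ± 8.39 against 75.8 ± 6.12 CPM, -1.58 ± 0.19, adjusted p = 2.13e-05). MAP2K2 was higher there (134 ± 11.3 against 79.8 ± 12.2 CPM, 0.80 ± 0.12, adjusted p = 1.26e-04). MAPK3, which encodes ERK1, stood at 9.69 ± 0.772 CPM in WT cells and was higher in KDAC8H143A (15.3 ± 1.05 CPM), after Tubastatin A (22.4 ± 0.576 CPM) and after PCI-34051 (20.9 ± 2.13 CPM). MAP2K1, the gene of MEK1, was higher with both inhibitors (91.3 ± 3.37 and 86.8 ± 4.28 against 49.7 ± 5.09 CPM). SRF itself was higher in KDAC8H143A than in KDAC6H611A (75.3 ± 11.5 against 42.2 ± 6.90 CPM, 0.87 ± 0.15, adjusted p = 4.59e-04), as was MRTFA, listed as MKL1 (52.7 ± 10.5 against 25.5 ± 3.16 CPM).

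Of 18 dimer partners of the FOS, JUN and MYC proteins, 17 were tested. In KDAC8H143A 9 were higher (52.9%, beside 31.6% of all genes) and 1 lower, after Tubastatin A treatment 5 higher (29.4%, beside 29.3%) and 6 lower (35.3%, beside 28.6%), after PCI-34051 6 higher (35.3%, beside 25.5%) and 5 lower (29.4%, beside 25.6%), and in KDAC6H611A 1 higher and 1 lower. MAFK, a small MAF gene, was higher in KDAC8H143A (95.7 ± 31.6 against 29.8 ± 2.76 CPM, 1.73 ± 0.22), as was MNT, which competes with MYC for MAX (60.6 ± 9.23 against 24.3 ± 1.88 CPM, 1.36 ± 0.13). CEBPB led with both inhibitors, at 104 ± 3.74 and 125 ± 10.6 CPM against 34.1 ± 5.57 CPM in WT cells. MXD4, a MYC antagonist, was the one called higher in KDAC6H611A (34.6 ± 3.47 against 16.2 ± 2.69 CPM). Against KDAC6H611A, KDAC8H143A had 9 of 16 further inducible factors higher and 1 lower, 8 of 20 signalling and decay genes higher and 4 lower, 4 of 14 feedback genes higher and 1 lower, 4 of 22 upstream genes higher and 4 lower, and 7 of 17 dimer partners higher and 0 lower. Of all genes tested, 24.3% were higher and 20.9% lower in that comparison, and 3.45% and 2.2% between the inhibitors. Between the inhibitors the counts were 2 and 0 of 18, 3 and 1 of 20, 0 and 2 of 15, 0 and 0 of 22, and 0 and 3 of 17. For the upstream genes, 5 had an unadjusted p below 0.05 in edgeR, DESeq2 called 1 among those listed under their current symbols, and the median difference was 0.06.

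Other genes with a CArG box before their start were also counted. Leaving out the members, 290 genes with at least 1 box were tested in KDAC8H143A, and 23.4% were called higher and 40.3% lower, beside 29.3% and 31.7% of 12664 protein-coding genes. With Tubastatin A 35% of 286 were higher and 25.9% lower, beside 33.5% and 26.7%, and with PCI-34051 28.6% of 287 were higher and 27.2% lower, beside 28.9% and 25.4%. Of the 7 genes other than EGR1 with at least 2 boxes that were tested in KDAC8H143A, 5 were called higher and 0 lower, while of 8 tested with the inhibitors 2 were higher and 2 lower with Tubastatin A and 1 higher and 2 lower with PCI-34051. In KDAC6H216A the median log2 difference of 279 genes with a box was 0.03, the same to 2 decimals as over protein-coding genes.

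The genes whose pattern was most like that of EGR1 were sought by Pearson's r of log2 CPM over the 22 libraries, among 18480 genes, as a description. The first 5 were TBC1D8 (r = 0.92), FOSB (0.91), MCC (0.91), FAM78B (0.91) and CDK13 (0.90). EGR1 and FOS had an r of 0.83 and FOS and FOSB one of 0.85, while EGR1 and FOSL1 had -0.49. For the other members the closest genes were EGR1 for FOSB (0.91), SLC9A3P2 for FOS (0.93), RNASEK for FOSL1 (0.82), MTCL1 for JUN (0.94), ABCA2 for JUNB (0.98), GRAMD1A for IER2 (0.98), TRIM16 for ATF3 (0.92), LOXL1 for DUSP1 (0.96) and RNPEPL1 for MYC (0.98). The libraries share depth, mitochondrial rRNA share and group, which these values of r therefore also describe. After the group means were subtracted, EGR1 was closest to MCC (0.89), Metazoa_SRP (0.89), GRM2 (0.87), MT-CO2 (0.87) and NEMF (0.85), and its r with FOS was 0.54 and with FOSB 0.28. JUNB was then closest to SCRIB (0.98), IER2 to TNRC18 (0.95), JUN to ZNF598 (0.96) and MYC to TNFRSF12A (0.98), whose transcripts are 67.6%, 67.1%, 65.0% and 62.6% G and C. FOS was closest to RP11-1246C19.1 (0.83), FOSB to MAB21L1 (0.86), FOSL1 to FXYD5 (0.92), ATF3 to CDYL (0.87) and DUSP1 to FLOT1 (0.90). The transcripts of RP11-1246C19.1, FXYD5 and FLOT1 are also above the median of 49.1% G and C over protein-coding genes. Those of MCC, MAB21L1 and CDYL, closest to EGR1, FOSB and ATF3, are below it, as is that of MYC itself. The part of GC content in these values of r was not tested.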

How the data were processed

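RNA-seq of 22 libraries of HT1080 cells was analysed. Per the methods and the submitters' processing notes, the authors depleted rRNA, trimmed paired reads with Trimmomatic 0.39, aligned them to GRCh38 with Bowtie2 2.4.5 and deposited RSEM 1.3.3 expected counts per gene, not scaled for depth or length, and used DESeq2 1.38.2. The annotation release they counted with is not given in the sources used here. All 22 columns of expected counts were used (0 left unused), and groups and replicate numbers came from the sample titles. Total counts ran from 5248953 to 29862665.

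Expected counts were rounded to whole numbers and fitted with edgeR 4.0.16 in R 4.3.3 (TMM, filterByExpr by group, glmQLFit and glmQLFTest, Benjamini-Hochberg adjustment over all genes tested) in fits of the 2 groups compared, at the threshold of 0.01 that the study used. The SE is the log2 fold change over the square root of F, and 95% intervals use Student's distribution with the residual degrees of freedom of the samples. CPM were scaled over all 22 libraries, and log2 CPM used a prior count of 2. Lengths, GC content and starts came from the canonical transcripts of GENCODE release 44, and CPM per kilobase divide by that length. The scripts were checked on simulated counts. The alternatives were DESeq2 1.42.0, upper quartile or total count scaling, no filter, 10 counts in every library, a threshold of 0.05, a joint fit of all 6 groups, leaving out mitochondrial rRNA, a smooth correction for GC content and length (mgcv 1.9.3), the replicate block, both together, and each library left out. Thinning to the smallest library was added after the data were seen. Summaries used python 3.11.15, numpy 2.4.6 and pandas 2.3.3, and figures matplotlib 3.10.9.

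The members and the lists were chosen with earlier results of these data known. Of each list up to 2 genes called higher and 2 called lower, with the largest changes among those without overlap, were named by rule, besides the genes most like each member, HDAC6 and HDAC8. The order of the groups, the CArG counts over other genes and the shares of the FOS and JUN families carry no test, and the last 2 were added after the data were seen. 4 listed genes were found under older symbols, and 1 marker gene is not reported here.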

Additional observations from a re-analysis of the deposited data

Results flagged for a closer look

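In 40 sets of 4 libraries, 1 gene in 1 group each, 4 held a library that lay apart from the other 3 by Dixon's test, and chance flags about 1 in 20 such sets. KDAC6H216A replicate 1, the library of that group with 0.195% mitochondrial rRNA, accounted for 3 of them. It held 135 CPM of FOSL1 beside 280 to 281 CPM in the others, 10.5 CPM of DUSP1 beside 20.7 to 20.9 CPM, and 40.1 CPM of MYC beside 64.3 to 68.6 CPM. The same library was the highest of its group for EGR1, FOS, FOSB and IER2. Without it, the libraries of KDAC6H216A lay above every WT library for FOSL1, ATF3, DUSP1 and MYC as well, at 1.06, 1.33, 1.31 and 1.20 times the WT mean. The share of all genes that do so without this library was not counted. As this contrast was used in the choice of members, nothing follows from these genes. The remaining set was FOSB in KDAC6H611A, where replicate 2 held 0 CPM, from 0 counts, beside 0.581 to 0.658 CPM, from 5 to 7 counts, in the others.

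The effects of 2 conditions differed by a direct test for 8 results. Tubastatin A against PCI-34051 gave -0.67 for EGR1 and 0.44 for FOSL1 on the log2 scale, in 3 libraries against 3 at doses that differ. KDAC8H143A against KDAC6H611A gave 4.94 for EGR1, 2.48 for FOS, 1.89 for JUNB, 1.78 for IER2, 1.31 for MYC and 1.27 for JUN, each with all 4 KDAC8H143A libraries above all 4 of KDAC6H611A. The mitochondrial rRNA share was at most 0.0259% in KDAC8H143A and 0.173% to 38.0% in KDAC6H611A. Its part in these differences was not tested.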

How the results depend on the processing

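The counts of members called against WT cells with Tubastatin A (8), with PCI-34051 (8) and in KDAC8H143A (10), and in KDAC8H143A against KDAC6H611A (7), stayed within 1.5 times under every alternative run. These 4 counts include FOSB, which passed the filter through 1 of the 2 groups only. In KDAC6H611A the count of 0 became 4 at a threshold of 0.05, 1 (JUN) without the filter, 1 (ATF3) with all 6 groups in one fit, 1 (JUN) with the correction for GC content and length, and 0 to 1 with 1 library left out. Between the inhibitors the count of 2 became 0 with DESeq2, 0 with upper quartile scaling, 0 with all 6 groups in one fit, 1 with the GC correction, 1 after thinning, and 0 to 1 with 1 library left out. The causes were not tested. Among values of single members, 1055 kept their direction and their side of the threshold, 30 lost the call, 11 gained it and 34 changed sign, all of the last in values that were not called in the fit reported.

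The changes of sign were small except with total counts as the only scaling. That scaling gave log2 values of 0.33 (JUN) and 0.28 (MYC) with Tubastatin A, 0.26 (JUN) and 0.31 (MYC) with PCI-34051, 0.033 (JUNB) in KDAC6H611A, 0.082 (FOSL1) in KDAC8H143A against KDAC6H611A and -0.023 (MYC) between the inhibitors. With upper quartile scaling JUNB was 0.034 and IER2 0.007 in KDAC6H611A, and MYC -0.008 between the inhibitors. JUNB was 0.001 in KDAC6H611A with 10 counts in every library, and MYC -0.005 between the inhibitors after thinning. Without the filter JUN was 0.073 and MYC 0.023 with Tubastatin A, and MYC 0.003 with PCI-34051. With all 6 groups in one fit these were 0.096, 0.047 and 0.019. With the GC correction JUN was 0.019 with Tubastatin A and DUSP1 -0.006 in KDAC8H143A against KDAC6H611A. With 1 library left out, JUNB ran from -0.173 to 0.086 and IER2 from -0.173 to 0.073 in KDAC6H611A, JUN from -0.049 to 0.04 with Tubastatin A, and ATF3 from -0.119 to 0.008 and MYC from -0.025 to 0.049 between the inhibitors.

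The replicate numbers did not pair the libraries, since in no comparison did every same-numbered pair correlate above 0.1. The replicate block alone changed no call of a member, and with it JUN was 0.031 with Tubastatin A. With the block and the GC correction together, JUN was 0.067 there, DUSP1 was -0.007 in KDAC8H143A against KDAC6H611A, and 1 member was called in KDAC6H611A.

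Total counts as the only scaling moved the median of all genes to 0.36 for KDAC8H143A, 0.35 for Tubastatin A and 0.38 for PCI-34051 against WT, and the share of called genes that were higher from 54.1% to 72.2%, 50.6% to 81.1% and 49.9% to 84.2%. In KDAC6H611A that share went from 49.3% to 60.1%, in KDAC8H143A against KDAC6H611A from 53.8% to 74.3% and between the inhibitors from 61.1% to 41.7%. EGR1 and FOSB had no value with 10 counts in every library where their counts were low, and the 0 to 7 counts of FOSB limit what can be said of it in WT and KDAC6H611A cells.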
